A study of Mus musculus with 12 samples.

Results

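Macrophages without the receptor GPR15 and wild-type macrophages were compared after exposure to lipopolysaccharide (LPS), the outer-membrane component of Gram-negative bacteria. The 6 arrays of this comparison, KO LPS replicates 1 to 3 and WT LPS replicates 1 to 3, come from a series of 12 single-colour Agilent arrays. The cells were taken from the abdominal cavity of C57/BL6 mice and kept in DMEM with 10% FBS. KO LPS cells came from GPR15 knockout mice and WT LPS cells from wild-type mice, and both received LPS at 100 ng/ml for 4 h. KO PBS and WT PBS cells, with 3 arrays each, carried the same genotypes and received PBS for 4 h. How the knockout was made, whether it acted in macrophages alone, the age and sex of the mice, and whether replicates were separate mice are not given in the sources used here, so p-values may measure technical spread only. A gene entered the comparison if it was autosomal and had a probe well above background on all 6 LPS arrays, the brightest such probe standing for it. Of 22008 autosomal gene symbols on the array 11666 met this rule, and the other 10342 were not tested. Among those left out, 207 were well above background on all 3 KO LPS arrays and on no WT LPS array, and 6 showed the reverse. The KO LPS arrays lay on another slide (below), with 51.4% to 57.1% of spots well above background against 48.8% to 53.5% in WT LPS. Genotype and slide cannot be told apart in these counts.

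GPR15 is a G protein-coupled receptor best known for guiding T cells to the large intestine. LPS is sensed on macrophages by TLR4 with MD-2 and CD14. The adaptor MyD88 links TLR4 to NF-kB and MAP kinases, which switch on cytokine and chemokine genes, and the adaptor TRIF links it to TBK1 and IRF3, which switch on interferon beta. Secreted interferon then acts on the same and neighbouring cells through IFNAR and factors such as STAT2 and IRF9, which bind interferon-stimulated response elements and raise antiviral genes as a second wave.

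The level of a gene is given here as log2 of its signal with the array's 75th percentile set to 0, and a difference is KO minus WT on that log2 scale, so that 1 stands for 2-fold. Each ± gives the standard error from limma, with 3 arrays in a group. The fit pools the spread of all groups of the series, PBS groups included. KO PBS lies on both slides (below), so its slide difference is part of each standard error and p of that fit. A gene was called where the Benjamini-Hochberg adjusted p of that fit was below 0.05. Levels of different genes come from different probes and are not compared with each other.

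Some facts of the arrays touch every result. Slide 1 carried the 6 WT arrays together with replicates 1 and 2 of KO PBS, and slide 2 carried replicate 3 of KO PBS together with the 3 KO LPS arrays, so after LPS genotype and slide cannot be told apart within the 6 arrays. A second fit over 12 arrays with the slide as a term, called the slide-term fit below, takes the slide difference from KO PBS replicate 3 against KO PBS replicates 1 and 2 alone, and its counts are given for the gene lists, with its values for the genes the results turn on. Signal well above background was found for Xist on 6 WT and 0 KO arrays, and for the Y-linked genes Ddx3y, Kdm5d and Uty on 6 KO and 0 WT arrays (Eif2s3y on 6 and 1), so genotype and sex cannot be told apart either. Gpr15 itself was well above background on 0 of 12 arrays, with signals of 6.02 to 15.2, and could not check the KO label. Of the 10 macrophage markers (among them Adgre1, Csf1r, Cd68, Itgam, Cd14, Mertk, Fcgr1, Lyz2 and Cd63), 10 were well above background on all 6 arrays. Their summed signal, in multiples of the array's 75th percentile, was 743 to 797 in WT LPS and 739 to 759 in KO LPS. Replicate arrays correlated across genes at 0.994 to 0.999 and arrays of different genotype at 0.986 to 0.990, as a description over genes that are not independent.

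The promoters of 4 interferon-induced genes that were lower in KO cells are shown first, because a sequence match was frequent in this gene group. They are examples chosen among genes with a match, so a match in all 4 follows from the choice. The letters searched were GAAA, 2 bases of any kind and GAAA, the core of the interferon-stimulated response element, on both strands of windows from 250 bases before to 50 bases after each RefSeq transcript start (build GRCm38.p6). Matches to the element within the 250 upstream bases are in capitals, the sequences run 5′ to 3′ on the strand of the gene, and overlapping matches form a single longer run.
Apol9b chr15:77728822-77729071 (+ strand): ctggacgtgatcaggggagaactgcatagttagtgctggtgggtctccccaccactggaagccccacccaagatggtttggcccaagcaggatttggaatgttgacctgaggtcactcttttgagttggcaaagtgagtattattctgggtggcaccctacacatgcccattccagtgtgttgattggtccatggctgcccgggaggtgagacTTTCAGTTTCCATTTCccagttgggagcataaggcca
Tgtp2 chr11:49064213-49064462 (- strand): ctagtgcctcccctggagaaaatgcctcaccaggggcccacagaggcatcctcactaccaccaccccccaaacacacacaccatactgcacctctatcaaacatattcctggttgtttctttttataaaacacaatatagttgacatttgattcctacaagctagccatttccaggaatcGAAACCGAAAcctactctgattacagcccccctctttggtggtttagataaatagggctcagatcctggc
Oas3 chr5:120777660-120777909 (- strand): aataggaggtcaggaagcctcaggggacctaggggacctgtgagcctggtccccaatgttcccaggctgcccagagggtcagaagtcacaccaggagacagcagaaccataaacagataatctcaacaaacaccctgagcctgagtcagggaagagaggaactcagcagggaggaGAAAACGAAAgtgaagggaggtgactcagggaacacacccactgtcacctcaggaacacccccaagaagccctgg
Bst2 chr8:71537473-71537722 (- strand): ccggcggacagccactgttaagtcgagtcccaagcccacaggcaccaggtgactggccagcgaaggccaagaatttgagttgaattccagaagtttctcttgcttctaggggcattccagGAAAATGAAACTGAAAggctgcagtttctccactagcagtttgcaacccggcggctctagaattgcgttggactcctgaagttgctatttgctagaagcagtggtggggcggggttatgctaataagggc
The match lay 75 bases upstream of the start in Oas3, which makes the messenger oligoadenylate that activates RNase L, and 70 bases upstream in Tgtp2, a GTPase of the immunity-related family. Apol9b, an apolipoprotein L gene, had 2 overlapping matches at 31 and 37 bases, and Bst2, the tetherin gene whose protein holds budding virus at the cell surface, had 2 at 124 and 130 bases. Apol9b had 2 promoter windows, and only the window with these matches is shown. Among other interferon-related genes that were lower in KO cells, Isg20, Irf7, Irf8, Ifi47, Tnfsf10 and Slfn4 had 0 matches. Igtp, Ddx58, Stat2 and Cxcl10 had 1 and Ifi205 had 2.

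Over whole lists, a match stood in 18 of 32 interferon-stimulated antiviral effector genes with a promoter sequence (56.2%) and in 8 of 9 interferon-inducible GTPase genes (88.9%). It stood in 372 of 9315 genes tested (4.0%) and in 3.44% of all 32851 promoter windows. Among genes at least 2-fold lower in KO cells it stood in 20 of 68 (29.4%), and among genes at least 2-fold higher in 5 of 124 (4.0%). The kappa B letters, GGGA, 2 bases of any kind and TTCC, stood in 3 of 4 neutrophil-attracting chemokine genes with a sequence, against 166 of 9315 genes tested (1.8%) and 1.47% of all windows. These shares describe letters in fixed windows and not bound sites.

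After LPS 4699 of 11666 genes (40.3%) were called, 2222 higher (19.0%) and 2477 lower (21.2%) in KO cells. Most differences were small: 158 called genes were at least 2-fold higher and 97 at least 2-fold lower. The median over all genes was -0.03. Scaling the arrays by their median signal moved it to -0.133, and 26.5% of the calls were then higher in KO cells in place of 47.3%. In the slide-term fit 767 genes (6.57%) were called, 430 lower (3.69%) and 337 higher (2.89%). Of the genes called without the term, 387 lower and 233 higher ones were called the same way with it, and its standard errors were 1.63 times as large in the median. The counts below are to be read against these shares.

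The interferon-stimulated antiviral effectors stood at the lower end of the lists. Of 42 genes listed, 40 were on the array by name and all of these were tested, while Mx1 and Mx2 were not matched. In KO cells 39 of 40 were lower and 1, Ifi27, was higher, with a median difference of -0.88 against -0.03 over all genes. In the slide-term fit 36 were lower and 1 higher, and the median was -0.99. The list was drawn up with earlier results of these arrays known.

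**Figure D1:**
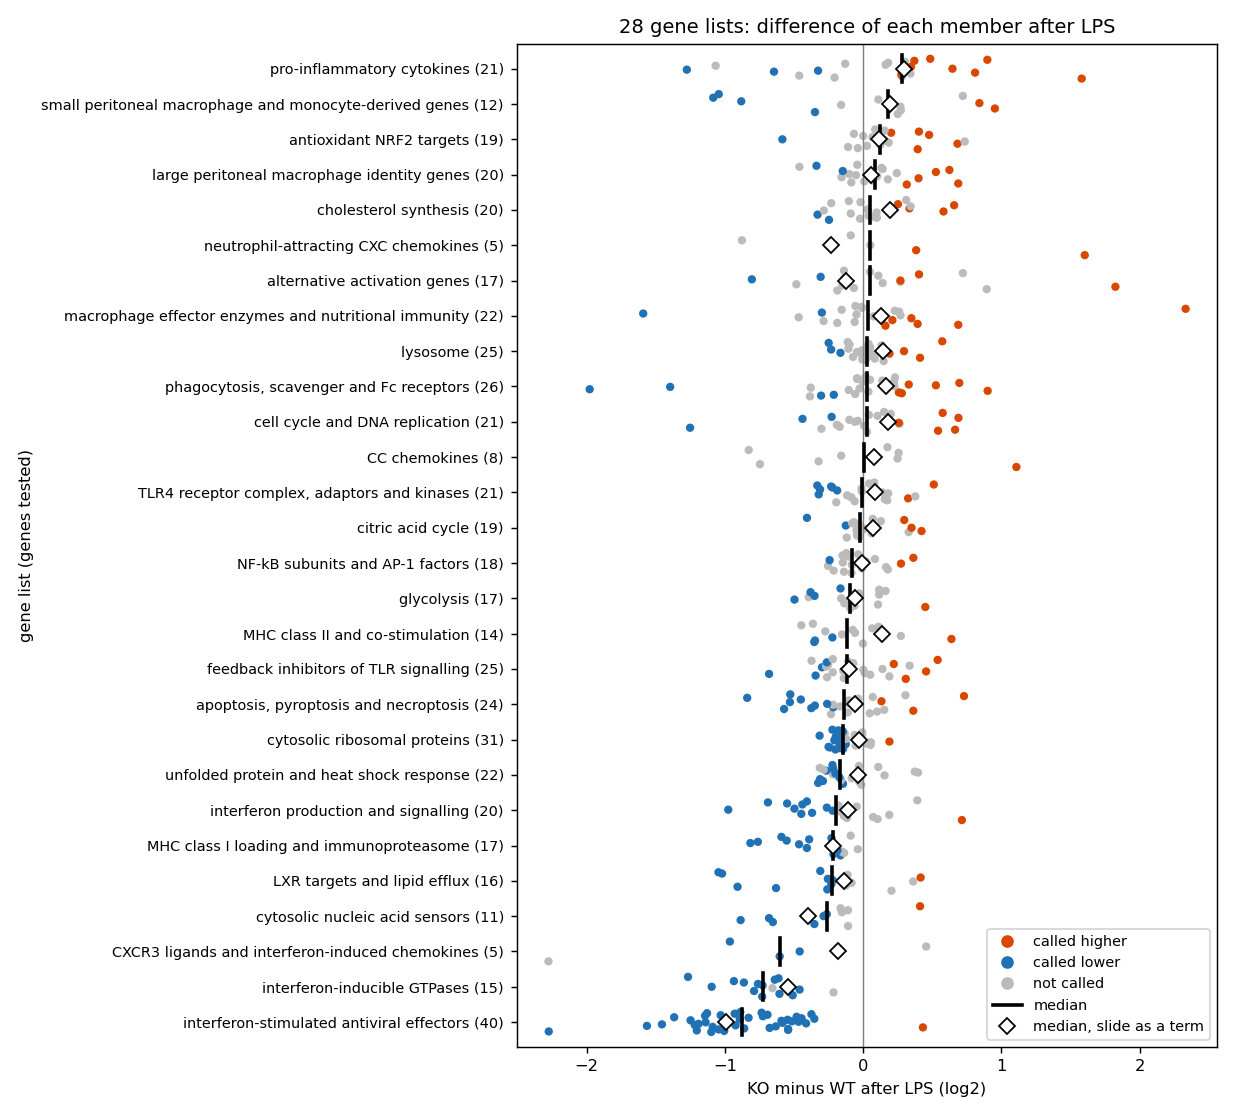
Difference between KO and WT macrophages after LPS (KO minus WT, log2, horizontal axis) for every tested member of 28 gene lists (vertical axis, number of genes tested in brackets). Each point is a gene, coloured by whether it was called higher, lower or not; black bars are list medians, and white diamonds are medians in the slide-term fit. The interferon-stimulated effectors lie at the bottom with a median of -0.88, and most other lists straddle 0.

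Apol9b had levels of 0.24, 0.46 and -0.48 on the WT LPS arrays and -2.07, -2.07 and -2.46 on the KO LPS arrays. Every KO value lay below every WT value, and WT replicate 3 was the lowest of its group. The difference was -2.27 ± 0.26 (adjusted p = 0.00011), and -2.05 (adjusted p = 0.034) in the slide-term fit. Levels in PBS were -2.24, -2.59 and -1.70 in WT and -1.69, -1.37 and -1.75 in KO cells, so the KO LPS arrays lay below KO PBS and among the WT PBS arrays, and WT LPS stood above all others. Its neighbour in name Apol9a was lower by a smaller amount, -1.10 ± 0.17.

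Oas3 was at 1.90, 1.92 and 1.79 in WT LPS and 0.68, 0.56 and 0.62 in KO LPS, with no overlap and little spread. The difference was -1.25 ± 0.08 (adjusted p = 4.1e-06). In PBS the order of the genotypes was the opposite: -0.54, -0.48 and -0.56 in WT and 0.44, 0.08 and 0.21 in KO cells, a difference of 0.77. Others of the 2′-5′ oligoadenylate synthetase family were lower after LPS too: Oasl2 by -0.89, Oas2 by -0.59, Oasl1 by -0.55, Oas1g by -0.52 and Oas1a by -0.47.

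Isg20, an RNA exonuclease, was at 5.47, 5.55 and 5.39 in WT LPS and 4.28, 4.34 and 4.37 in KO LPS, a difference of -1.14 ± 0.06 (adjusted p = 1.9e-06). Bst2 was at 5.11, 5.23 and 4.91 against 4.08, 4.11 and 4.04, a difference of -1.01 ± 0.07 (adjusted p = 6.5e-06). Ifi27l2a was at 6.62, 6.61 and 6.72 against 5.53, 5.54 and 5.61, a difference of -1.09 ± 0.07 (adjusted p = 4.1e-06). In each of these genes the groups were separated by more than the spread of either. Ifi27l2a was also lower in KO cells in PBS (-0.41), where Isg20 and Bst2 were higher (0.53 and 0.34).

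Further members are named here for their familiarity, after their values were seen. Ifi44 differed by -1.56 ± 0.17, and Rsad2, whose product viperin makes a chain-terminating nucleotide, by -1.37 ± 0.16. The Ifit genes, whose proteins bind foreign RNA ends, differed by -1.46 ± 0.15 for Ifit3, -1.22 ± 0.15 for Ifit2, -1.19 ± 0.16 for Ifit3b and -0.92 ± 0.17 for Ifit1. Cmpk2, a mitochondrial nucleotide kinase, differed by -1.20 ± 0.13. The ubiquitin-like modifier Isg15 differed by -0.58 ± 0.11 and Usp18, the protease that removes it, by -1.13 ± 0.11. Slfn1 and Slfn5 of the schlafen family differed by -1.14 ± 0.10 and -1.03 ± 0.10, and the RNA-activated kinase gene Eif2ak2 by -0.54 ± 0.08. Under the slide term Ifit1 moved to -1.44 and Epsti1 from -0.86 to -1.65. The effectors that lost their call with the term were Isg15 at -0.75 (adjusted p = 0.053), Ifitm3 at -0.41 (adjusted p = 0.11) and Trim21 at -0.59 (adjusted p = 0.056). Ifi27, the single member that was higher, differed by 0.43 ± 0.05 and had been higher in PBS as well (0.28).

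**Figure D2:**
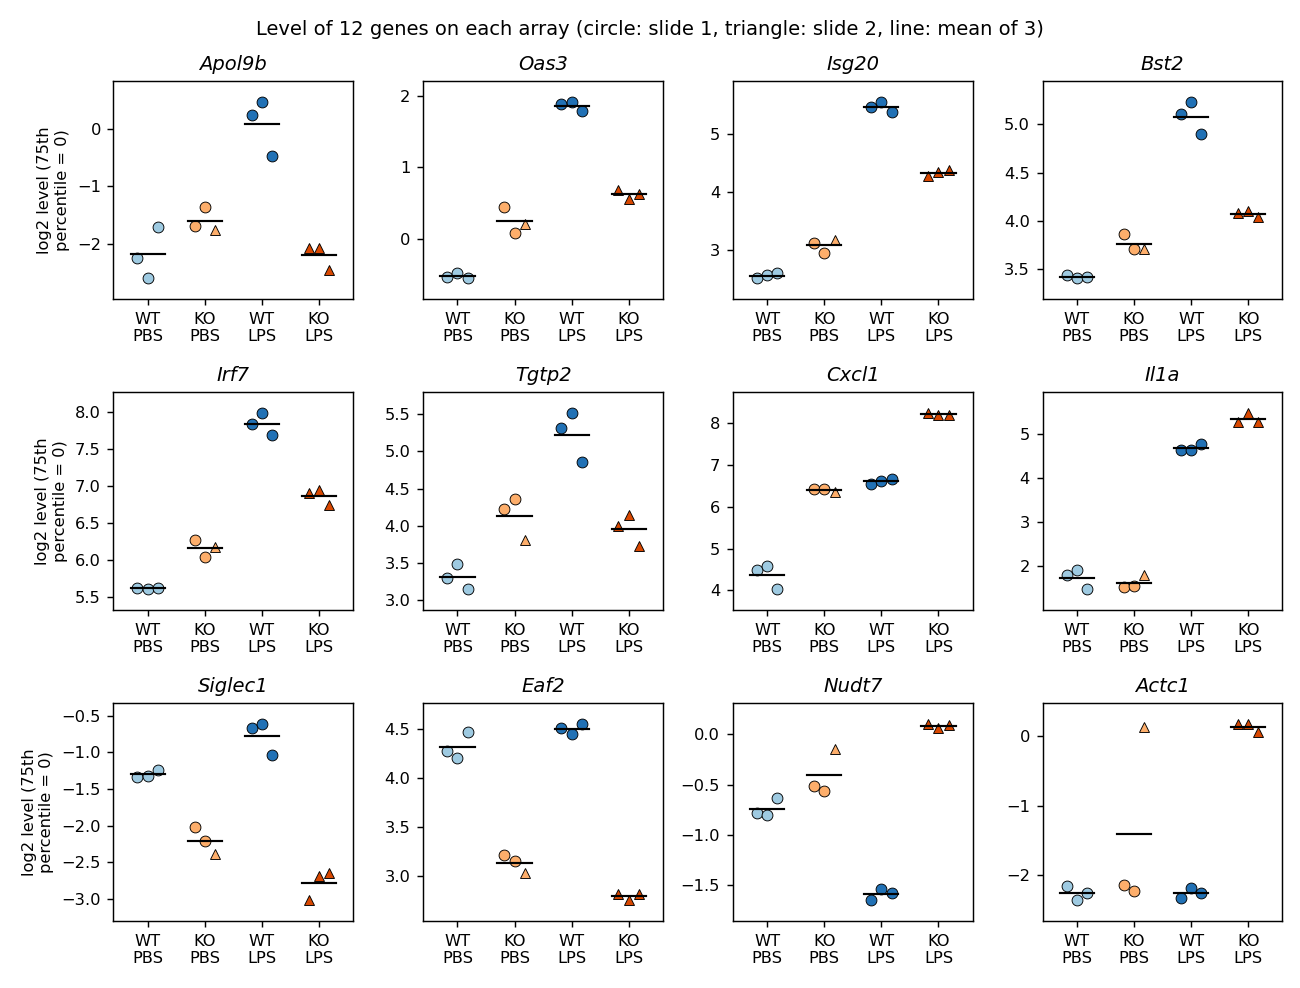
Level of 12 genes on each of the 12 arrays, by group (horizontal axis), as log2 of the signal with the array's 75th percentile at 0 (vertical axis, own range in each panel). Points are arrays (circles on slide 1, triangles on slide 2) and lines are group means of 3; the interferon-induced genes from Apol9b to Tgtp2 are lower in KO LPS than in WT LPS, Cxcl1 and Il1a higher, and Actc1 is high on all slide 2 arrays, the PBS array included.

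Interferon-inducible GTPases, which attack the membranes around intracellular microbes, were also lower. Of 15 tested, 13 were lower and 0 higher after LPS, with a median of -0.73. The 2 that were not called were Gbp5 (-0.21) and Gbp8 (-0.66). In the slide-term fit 5 were lower: Gbp7, Igtp, Irgm1, Ifi47 and Gvin1. The median was then -0.54, so the median kept its sign and most of the calls were lost.

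Tgtp2 was at 5.31, 5.51 and 4.86 in WT LPS and 4.00, 4.15 and 3.73 in KO LPS. The difference was -1.27 ± 0.18 (adjusted p = 0.00046), and -0.78 (adjusted p = 0.14) in the slide-term fit, so that call was lost. KO PBS replicate 3, on slide 2, was 0.49 below the mean of the other KO PBS arrays. Gvin1, a very large GTPase, was at 5.34, 5.36 and 5.38 against 4.68, 4.63 and 4.59, a difference of -0.73 ± 0.06. Igtp and Ifi47, immunity-related GTPases, differed by -0.86 ± 0.10 and -0.76 ± 0.09. In all of these the KO and WT LPS arrays did not overlap.

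The sensors of foreign nucleic acid showed the same direction at smaller size. Of 11 tested, 6 were lower and 1 higher, and the median was -0.26. The RNA helicase gene Ddx58 (RIG-I) was at 4.58, 4.65 and 4.52 in WT LPS and 3.94, 3.90 and 3.94 in KO LPS, a difference of -0.65 ± 0.07 (adjusted p = 5.9e-05). Dhx58 (LGP2), which tunes RIG-I-like sensing, differed by -0.89 ± 0.10. Among DNA-binding members of the Ifi200 family, Ifi204 differed by -0.68 ± 0.08 and Ifi205 by -0.29 ± 0.05. Ifih1 (MDA5) and Cgas, the source of cyclic GMP-AMP, differed by -0.26 and -0.35. Tlr9, the endosomal receptor for CpG DNA, was the member that was higher (0.41 ± 0.07), and in the slide-term fit it was at 0.14 (adjusted p = 0.31). With that term 6 members were lower, among them Tlr3 (-0.74), which was not called without it (-0.16).

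Among genes of interferon production and signalling, 10 of 20 tested were lower and 1 higher (median -0.20), and 5 were lower in the slide-term fit. Irf7, the factor that amplifies type I interferon, was at 7.84, 7.98 and 7.69 in WT LPS and 6.90, 6.94 and 6.74 in KO LPS. That is a difference of -0.98 ± 0.08 (adjusted p = 1.6e-05), and -0.99 in the slide-term fit. Stat2 and Irf9, parts of the interferon-activated complex, differed by -0.69 ± 0.08 and -0.26 ± 0.05. Irf8, a factor of monocyte and macrophage development, differed by -0.50 ± 0.06. Receptor and kinase genes that did not pass the test were Ifnar1 0.10, Ifnar2 -0.12, Jak1 -0.05 and Tyk2 0.39. Irf3, which acts before interferon is made, was lower by -0.37 ± 0.06 but was at -0.13 (adjusted p = 0.26) in the slide-term fit. Ifna1 was the member that was higher (0.71 ± 0.17), and it was at 0.08 (adjusted p = 0.86) in the slide-term fit. Ifnb1 was not tested, because it was well above background on 4 of 6 LPS arrays.

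Of the interferon-induced chemokines and related ligands, 3 of 5 tested were lower. Tnfsf10, the death ligand TRAIL, was at -0.88, -0.75 and -1.30 in WT LPS and -1.85, -2.02 and -1.96 in KO LPS, a difference of -0.96 ± 0.17 (adjusted p = 0.0014), and -1.34 (adjusted p = 0.021) in the slide-term fit. Ccl5, which attracts T cells, differed by -0.60 ± 0.14 and Cxcl10, a ligand of CXCR3, by -0.46 ± 0.13. Both calls were lost in the slide-term fit, at -0.18 (adjusted p = 0.65) and -0.15 (adjusted p = 0.72). The call of Cxcl10 was also lost without WT LPS replicate 1 (-0.44), WT LPS replicate 2 (-0.38) or KO LPS replicate 3 (-0.43). Ccl12 had the largest difference of the list, -2.28 ± 0.90, and did not pass the test (adjusted p = 0.063).

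MHC class I loading and the immunoproteasome, which cut and load peptides for CD8 T cells and respond to interferon, had 12 of 17 tested members lower and 0 higher (median -0.22). Psmb8 was at 4.09, 4.16 and 3.83 in WT LPS and 3.25, 3.27 and 3.11 in KO LPS, a difference of -0.82 ± 0.09 (adjusted p = 0.00013). Psmb9, Tapbp and Psme1 differed by -0.76 ± 0.10, -0.59 ± 0.08 and -0.55 ± 0.06. In the slide-term fit 2 members were called lower, Psme1 (-0.35) and Tap1 (-0.40), and Psmb8 was at -0.52 (adjusted p = 0.053). Of MHC class II and co-stimulation genes 3 of 14 were lower and 1 higher. Cd80 differed by 0.64 ± 0.10, Cd74, the invariant chain, by -0.35 ± 0.08, and Cd86 by -0.22 ± 0.07. Cd40 differed by -0.35 ± 0.12 and turned to 0.18 in the slide-term fit. Of these 4 genes none was called with the term. Cd40 lost its call with quantile normalization (-0.31) and on leaving out any of the 6 LPS arrays in turn (-0.39 to -0.31), and Cd86 without WT LPS replicate 1 (-0.21) or 2 (-0.20) or KO LPS replicate 1 (-0.22), 2 (-0.23) or 3 (-0.22).

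The interferon genes differed between genotypes in the other direction without LPS. In PBS, KO cells had 993 higher (8.51%) and 758 lower genes (6.50%). Of the 40 effectors 34 were higher and 1 lower in PBS, with a median of 0.55, and of the 15 GTPases 12 were higher and 0 lower, with a median of 0.82. Restricted to slide 1, KO PBS replicates 1 and 2 against WT PBS gave medians of 0.51 and 0.85, so these differences were of the same size within a slide. The total of 1751 calls in PBS fell to 861 without WT PBS replicate 1. Across all genes 153 were higher in PBS and lower after LPS, 8 showed the reverse, 540 were higher in both and 490 lower in both.

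**Figure D3:**
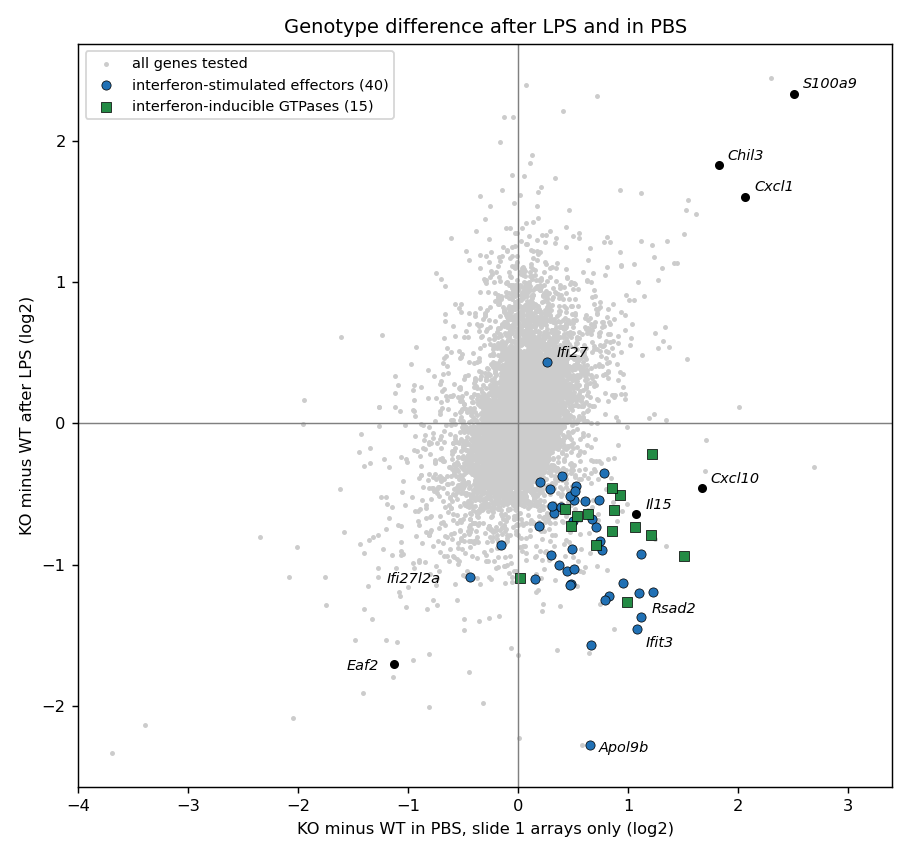
KO minus WT after LPS (vertical axis, log2) against KO minus WT in PBS on slide 1 arrays (horizontal axis, log2) for 11666 genes. Blue circles are the 40 interferon-stimulated effectors and green squares the 15 interferon-inducible GTPases; most lie in the lower right part, higher in KO cells in PBS and lower after LPS, whereas S100a9, Chil3 and Cxcl1 lie in the upper right.

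Whether the difference after LPS departed from that in PBS was tested as the genotype by LPS interaction. It was below 0 for 449 genes (3.85%) and above 0 for 110 (0.943%). Of the effectors 38 of 40 had an interaction below 0 and 0 above, and of the GTPases 13 of 15 and 0. The medians were -1.36 and -1.38, and -1.51 and -1.37 in the slide-term fit, against -0.02 and 0.01 over all genes. The total of 559 calls ranged from 356 without WT PBS replicate 1 to 2553 without KO PBS replicate 3, the KO PBS array on slide 2.

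Cytokines did not follow the interferon genes. Of 21 pro-inflammatory cytokine genes tested 8 were higher and 3 lower in KO cells after LPS (median 0.28), against 19.0% higher and 21.2% lower over all genes. Cd70, a TNF-family ligand for CD27, was at 0.08, -0.07 and 0.41 in WT LPS and 1.74, 1.87 and 1.55 in KO LPS, a difference of 1.58 ± 0.27 (adjusted p = 0.0013). Il1a was at 4.63, 4.64 and 4.77 against 5.26, 5.46 and 5.26, a difference of 0.65 ± 0.11 (adjusted p = 0.0012). Il12b, the p40 subunit of IL-12 and IL-23, was low in signal, at -2.88, -2.92 and -2.69 against -1.93, -1.91 and -2.22, and differed by 0.81 ± 0.15. In these genes all KO values exceeded all WT values. Cd70 and Il12b were also called higher in KO cells in PBS (1.52 and 0.60), and Il1a was not (-0.11). On the 6 PBS arrays Cd70 was well above background on 3 and Il12b on 1.

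Tnf differed by 0.37 ± 0.09 (adjusted p = 0.0094), and the heterodimer partners Il27 and Ebi3 by 0.35 ± 0.09 and 0.28 ± 0.06. The lower genes were Il15 (-0.65 ± 0.11), a survival factor of NK and memory T cells, Il18 (-0.33 ± 0.07) and Il19 (-1.28 ± 0.45). Il15 and Il18 had been higher in KO cells in PBS (1.08 and 0.66). Il6, Il1b and Csf2 did not pass the test, at 0.16, 0.30 and 0.28. Cytokines called in the slide-term fit were 3 higher, Tnf (0.61), Il12b (1.18) and Tnfsf15 (1.95), and 0 were lower. Cd70 was then at 1.66 (adjusted p = 0.089) and Il1a at 0.39 (adjusted p = 0.22).

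Cxcl1, a ligand of CXCR2 that draws neutrophils, had the clearest rise among chemokines. It was at 6.55, 6.61 and 6.66 in WT LPS and 8.23, 8.20 and 8.20 in KO LPS, a difference of 1.60 ± 0.11 (adjusted p = 4.1e-06), and 1.68 (adjusted p = 0.0022) in the slide-term fit. It was higher in KO PBS as well, 6.43, 6.42 and 6.35 against 4.48, 4.58 and 4.03, so the KO PBS arrays reached nearly the level of WT LPS. The neighbouring chemokine Cxcl2 differed by 0.38 ± 0.11 and was at 0.25 (adjusted p = 0.51) with the term; its call was also lost with median scaling (0.28) and without WT LPS replicate 1 (0.38), KO LPS replicate 1 (0.36) or KO LPS replicate 2 (0.36). Cxcl3 (0.05) and Cxcl5 (-0.88) did not pass the test. Of 8 CC chemokines 1 was higher, Ccl17, a ligand of CCR4, at -3.35, -2.87 and -2.79 against -1.87, -1.61 and -2.21, a difference of 1.11 ± 0.18 (adjusted p = 0.001). Ccl2, Ccl3 and Ccl4 were at -0.75, 0.25 and -0.16 and were not called.

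The receptor and its first signalling steps differed little. Of 21 genes of the TLR4 complex, adaptors and kinases 2 were higher and 6 lower (median -0.01), and the whole range was -0.33 to 0.51. Tlr4 was at 1.34, 1.39 and 1.58 in WT LPS and 1.92, 1.96 and 1.97 in KO LPS, a difference of 0.51 ± 0.10 (adjusted p = 0.0026), and 0.42 (adjusted p = 0.2) in the slide-term fit. The mean of its probes gave 0.38, which was not called. Irak2, a kinase of the MyD88 arm, differed by 0.33 ± 0.05, and Tbk1, the kinase of the interferon arm, by -0.22 ± 0.06. Tirap, which brings MyD88 to TLR4, differed by -0.33 ± 0.09, was at 0.03 in the slide-term fit, and lost its call without WT LPS replicate 1 (-0.29). With the slide term 0 of the 6 lower calls were kept, Tbk1 being at -0.14 (adjusted p = 0.41), and of the higher ones Irak2 was kept (0.38).

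Downstream, 2 of 18 NF-kB subunit and AP-1 factor genes were higher and 1 lower. Nfkb2, the subunit of the non-canonical pathway, differed by 0.36 ± 0.06, Fosl2 by 0.27 ± 0.08 and Jund by -0.24 ± 0.05, and in the slide-term fit 0 of the 18 were called. Fosl2 also lost its call with median scaling (0.17), with normexp background correction (0.22), and without WT LPS replicate 1 (0.25) or 2 (0.26) or KO LPS replicate 1 (0.28), 2 (0.28) or 3 (0.26). Of 25 feedback inhibitors 4 were higher and 4 lower. Irak3 (IRAK-M), which blocks IRAK signalling, was at 2.57, 2.59 and 2.57 in WT LPS and 3.02, 3.06 and 3.01 in KO LPS. The difference was 0.46 ± 0.04 (adjusted p = 4.6e-05), 0.50 in the slide-term fit and 0.49 in PBS, so it was about the same size in each. The MAP kinase phosphatases Dusp2 and Dusp5 differed by -0.34 ± 0.06 and -0.68 ± 0.17 and Pdlim2, which promotes p65 breakdown, by -0.30 ± 0.06; none of these was called with the term. Of the 8 calls in this list 1, that of Irak3, was kept.

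Enzymes and metal-binding proteins of activated macrophages showed both directions, with 7 of 22 higher and 2 lower. S100a9, a subunit of calprotectin, was at -1.04, -0.64 and -2.90 in WT LPS and 0.76, 0.49 and 1.16 in KO LPS. WT replicate 3 was far below the other WT arrays, and every KO value was above every WT value. The difference was 2.33 ± 0.50 (adjusted p = 0.0042), with 1.92 (adjusted p = 0.26) in the slide-term fit and 2.64 in PBS. Its usual partner S100a8 was at -0.16 and not called.

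Nos2, which makes nitric oxide, was lower by -1.59 ± 0.38 (adjusted p = 0.0068) and at -1.77 (adjusted p = 0.17) in the slide-term fit. Alox15 and Alox5, lipoxygenases of the eicosanoid pathway, were higher by 0.69 ± 0.15 and 0.39 ± 0.07, and Ptges, which makes prostaglandin E2, was lower by -0.30 ± 0.07. The slide term left them at 0.61 (adjusted p = 0.24), 0.23 (adjusted p = 0.23) and -0.21 (adjusted p = 0.31), and of the list's calls 2 of 7 higher and 0 of 2 lower were kept. Among alternative activation genes 3 of 17 were higher and 2 lower. Chil3 (Ym1) was at -0.85, -0.79 and -1.0 in WT LPS and 0.84, 0.62 and 1.37 in KO LPS, a difference of 1.82 ± 0.19 (adjusted p = 7.2e-05), 1.53 in the slide-term fit and 1.92 in PBS. Il4ra, the receptor chain for IL-4 and IL-13, was lower by -0.81 ± 0.11 and at -0.50 (adjusted p = 0.13) with the term. Mgl2 was lower by -0.31 ± 0.05 and Pdcd1lg2 (PD-L2) higher by 0.40 ± 0.09. Chil3 and Pdcd1lg2 (0.64) kept their call with the term, and Mgl2 (-0.21, adjusted p = 0.1) lost it.

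The mouse peritoneum holds large macrophages that reside there and small ones derived from monocytes. Of 20 genes of large peritoneal macrophages 5 were higher and 2 lower, and in the slide-term fit 3 of these higher calls and 0 of the lower ones were kept. Adgre1 (F4/80) was at 5.34, 5.34 and 5.45 in WT LPS and 5.66, 5.68 and 5.74 in KO LPS, a difference of 0.32 ± 0.04 (adjusted p = 0.00047); the mean of its probes gave 0.22, which was not called. F10, coagulation factor X, differed by 0.40 ± 0.06, Itgam (CD11b) by 0.53 ± 0.07 and Naip1, a cytosolic sensor of bacterial proteins, by 0.62 ± 0.12. Itgam lost its call with the slide term (0.41, adjusted p = 0.057), and Naip1 lost it with normexp background correction (0.21).

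Of 12 genes of small, monocyte-derived cells 4 were lower and 2 higher. Ly6c2 was at 5.57, 5.64 and 5.54 in WT LPS and 4.68, 4.64 and 4.79 in KO LPS, a difference of -0.88 ± 0.07 (adjusted p = 7.4e-06). Plac8 was at 5.43, 5.59 and 5.23 against 4.34, 4.31 and 4.34, a difference of -1.08 ± 0.11 (adjusted p = 5.9e-05). Both kept their call in the slide-term fit, and in PBS they were at -0.17 and -0.10, neither of which passed the test. Fcrls and Itgax (CD11c) were the higher members (0.95 ± 0.14 and 0.84 ± 0.14), at 0.79 (adjusted p = 0.096) and 1.19 (adjusted p = 0.016) with the term. In bulk RNA fewer cells of a kind and less RNA per cell cannot be told apart.

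Uptake receptors showed both directions. Of 26 phagocytosis, scavenger and Fc receptor genes 6 were higher and 4 lower. The activating Fc receptor Fcgr1 (CD64) was at 2.98, 3.11 and 2.12 in WT LPS and 0.82, 0.75 and 0.71 in KO LPS, a difference of -1.98 ± 0.35 (adjusted p = 0.0016), and -2.03 (adjusted p = 0.11) in the slide-term fit. Fcgr4 was lower by -1.40 ± 0.40 and C1qa and C1qb, chains of complement C1q, by -0.30 ± 0.08 and -0.21 ± 0.07. Marco, a scavenger receptor for bacteria, was higher, at 7.38, 7.43 and 7.48 against 8.13, 7.95 and 8.29, a difference of 0.70 ± 0.08 (adjusted p = 0.00014), 0.78 in the slide-term fit. Clec4d and Clec4n, C-type lectins for fungal and mycobacterial sugars, were higher by 0.26 ± 0.05 and 0.90 ± 0.21. With the slide term 1 of the 6 higher calls, that of Marco, and 0 of the 4 lower ones were kept, and Clec4d was at 0.20 (adjusted p = 0.12).

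Several targets of the liver X receptors were lower, among them the desaturases Scd1 and Scd2. Of 16 such targets and lipid efflux genes 9 were lower and 1 higher (median -0.23), and 3 were lower in the slide-term fit. Scd2 was at -0.78, -0.71 and -1.05 in WT LPS and -1.92, -1.94 and -1.82 in KO LPS, a difference of -1.05 ± 0.08 (adjusted p = 1.4e-05). Scd1, also a stearoyl-CoA desaturase, was at 3.20, 3.27 and 2.90 against 2.03, 2.06 and 2.22, a difference of -1.02 ± 0.09 (adjusted p = 2.3e-05). Both were lower in KO PBS by similar amounts (-0.71 and -0.93). Apoc2 was lower by -0.91 ± 0.08 and Nr1h2 (LXR beta) by -0.26 ± 0.05. The call of Nr1h2 was lost with the slide term (-0.16, adjusted p = 0.27), and the mean of its probes gave -0.03, which was not called.

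Of 20 cholesterol synthesis genes 5 were higher and 2 lower. Mvk, mevalonate kinase, was at -0.70, -0.70 and -0.61 in WT LPS and -0.03, 0.09 and -0.09 in KO LPS, a difference of 0.66 ± 0.07 (adjusted p = 7e-05). Idi1, which isomerises isopentenyl diphosphate, differed by 0.58 ± 0.07 and Msmo1 by 0.20 ± 0.05. With the slide term 3 of the 5 higher and 0 of the 2 lower calls were kept, those of Mvk (0.62), Idi1 (0.51) and Pmvk (0.43), and Msmo1 was at 0.17 (adjusted p = 0.26). Msmo1 also lost its call with median scaling (0.09) and with the mean of its probes (0.05). Central carbon genes differed little: 1 of 17 glycolysis genes was higher and 4 lower, with Eno1 at 0.45 ± 0.07, Pfkl at -0.35 ± 0.08, Pkm at -0.38 ± 0.11 and Hk3 at -0.50 ± 0.15. Of 19 citric acid cycle genes 3 were higher and 2 lower, with Idh2 at 0.42 ± 0.09, Mdh1 at 0.35 ± 0.07, Sucla2 at 0.30 ± 0.06 and Suclg2 at -0.41 ± 0.09. In both lists 0 genes were called in the slide-term fit. Hk3 also lost its call without WT LPS replicate 1 (-0.48) or 2 (-0.41) or KO LPS replicate 1 (-0.50), 2 (-0.51) or 3 (-0.47), Pkm without WT LPS replicate 1 (-0.36) or 2 (-0.34), and Suclg2 with the mean of its probes (-0.25). Of 19 antioxidant NRF2 targets 5 were higher and 1 lower: Gpx1 was at 0.68 ± 0.12, Slc7a11, the cystine importer, at 0.48 ± 0.09, Cat at 0.39 ± 0.08, and Keap1, the NRF2 inhibitor, at -0.58 ± 0.06. The slide term left 0 of the 5 higher calls, with Gpx1 at 0.73 (adjusted p = 0.095), Slc7a11 at 0.39 (adjusted p = 0.17) and Cat at 0.15 (adjusted p = 0.5), while Keap1 stayed lower (-0.38, adjusted p = 0.028).

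Of 24 genes of cell death 9 were lower and 3 higher (median -0.14), and in the slide-term fit 2 were lower and 2 higher (median -0.06). Pmaip1 (NOXA), a killer protein of the BCL2 family, was the clearest rise, at 2.05, 2.09 and 2.08 in WT LPS and 2.86, 2.81 and 2.74 in KO LPS, a difference of 0.73 ± 0.05 (adjusted p = 4.1e-06), 0.81 in the slide-term fit. Bcl2l11 (BIM), of the same family, went the other way, at 3.14, 3.14 and 3.27 against 2.62, 2.60 and 2.61, a difference of -0.57 ± 0.06 (adjusted p = 4.1e-05). Mlkl, the pore-former of necroptosis, was lower by -0.84 ± 0.15 and Casp8 by -0.53 ± 0.06. Bcl2l11 and Casp8 kept their call with the term, and Mlkl was at -1.01 (adjusted p = 0.054). Of 21 cell cycle genes 5 were higher and 3 lower, with Mki67 at 0.69 ± 0.12, Top2a at 0.58 ± 0.15, Mcm3 at 0.26 ± 0.05 and Mcm7 at -0.44 ± 0.09, and 0 were called in the slide-term fit. Mcm3 also lost its call with median scaling (0.15) and with the mean of its probes (0.18).

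Housekeeping lists showed small shifts. Of 31 cytosolic ribosomal protein genes 18 were lower and 1 higher, between -0.32 and 0.19, and in the slide-term fit 0 were called and the median moved from -0.15 to -0.03. Rps18 was at 9.01, 9.11 and 9.03 in WT LPS and 8.75, 8.71 and 8.75 in KO LPS, a difference of -0.32 ± 0.05 (adjusted p = 0.0014), and KO PBS replicate 3 stood 0.16 below the other KO PBS arrays. Rpl18 and Rpl19 differed by -0.24 ± 0.05 and -0.25 ± 0.06. Of 22 unfolded protein and heat shock genes 9 were lower and 0 higher, and 0 were called with the term; Atf6 was at -0.33 ± 0.06, Dnajb1 at -0.31 ± 0.06, Hspa5 (BiP) at -0.27 ± 0.06 and Ddit3 (CHOP) at -0.29 ± 0.07. Of 25 lysosome genes 4 were higher and 3 lower, with Tfeb, the master factor of lysosome genes, at 0.57 ± 0.11, Ctsa at 0.41 ± 0.08, Npc2 at -0.25 ± 0.05 and Grn at -0.23 ± 0.05. With the slide term 0 of these 7 calls were kept, and Tfeb was at 0.15 (adjusted p = 0.46). Tfeb also lost its call with the mean of its probes (0.16) and Grn with quantile normalization (-0.09).

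The 15 largest falls, chosen by size among called genes whose groups did not overlap, held interferon-induced and myeloid receptor genes. Siglec1 (CD169), a sialic acid receptor of macrophages that interferon is known to raise, was at -0.67, -0.62 and -1.04 in WT LPS and -3.02, -2.68 and -2.64 in KO LPS, a difference of -2.00 ± 0.14 (adjusted p = 5.3e-06). Slfn4, a schlafen gene of myeloid cells, was at 4.91, 5.05 and 4.72 against 3.27, 3.24 and 3.27, a difference of -1.64 ± 0.10 (adjusted p = 2.6e-06), and 0.10 in PBS. Eaf2, an elongation factor partner, was at 4.50, 4.45 and 4.55 against 2.82, 2.75 and 2.82, a difference of -1.70 ± 0.07 (adjusted p = 2.5e-07). Eaf2 was lower in PBS as well (-1.18), and it gave the smallest adjusted p among the genes named here.

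Itpka, an inositol trisphosphate kinase, was at 0.32, 0.39 and 0.19 in WT LPS and -1.29, -1.65 and -1.44 in KO LPS, a difference of -1.76 ± 0.11. Cables1, a CDK-binding protein, differed by -1.67 ± 0.15 and Rin2, a RAB5 exchange factor, by -1.61 ± 0.19. Siglec1, Slfn4, Eaf2, Itpka, Cables1 and Rin2 kept their call in the slide-term fit. Several falls rested on groups with an uneven WT replicate 3: Uchl1, a ubiquitin hydrolase, was at -0.42, -0.28 and -2.48 in WT LPS against -2.78, -3.10 and -3.02 in KO LPS, and Cited4 at -1.03, -0.74 and -2.95 against -3.58, -3.48 and -3.04. Without WT LPS replicate 1 or 2 Uchl1 was at -1.59 and -1.52 and Cited4 at -1.53 and -1.38, none called, and Uchl1 also lost its call without KO LPS replicate 2 (-1.84) or 3 (-1.88). Lipg, endothelial lipase, differed by -2.23 ± 0.33 and Inhbb, an activin subunit, by -2.13 ± 0.53. Cd209a, a DC-SIGN homologue, differed by -1.63 ± 0.30 and Ido1, which breaks down tryptophan, by -1.63 ± 0.41. In the slide-term fit these genes were at -1.80, -1.84, -1.81 and -0.65 and not called. Inhbb was lower by more in PBS (-3.49), where it was well above background on 2 of 6 arrays. Lipg, Cd209a and Ido1 were not called in PBS. Lipg and Ido1 were well above background on 0 of 6 PBS arrays, so their PBS comparison cannot show a genotype difference. Their slide-term values rest on the same dim PBS arrays.

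Syt10, a synaptotagmin, had the largest fall by size, -2.33 ± 0.67 (adjusted p = 0.017), and an unusual pattern. It was at -0.83, -0.45 and -0.14 in WT LPS and -3.17, -2.33 and -2.92 in KO LPS, and in KO PBS at -4.91, -4.30 and -1.36. Replicate 3 of KO PBS stood 3.24 above the others, so the slide term moved the value to -5.58 (adjusted p = 0.00028). Syt10 was well above background on only 4 of 6 PBS arrays, and KO PBS replicates 1 and 2 were the lowest of all arrays. The size of that slide difference, and of the value resting on it, is therefore uncertain. Its call was lost without KO LPS replicate 1 (-2.15) or 3 (-2.28).

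The 15 largest rises differed from the falls in how they followed the slide. KO PBS replicate 3 lay above the mean of KO PBS replicates 1 and 2 by at least 0.5 in 10 of the 15 rises. It lay below that mean by at least 0.5 in 1 of the 15 falls, Ido1 (-0.98), while for Syt10 it lay above (3.24). Ido1 was well above background on 0 of 6 PBS arrays and Syt10 on 4 of 6. The median slide difference was 1.32 in the rises and -0.15 in the falls. Of the 15 in each set, 3 rises and 8 falls were called in the slide-term fit. Among all genes at least 2-fold higher, 120 of 158 showed this excess, 18 were called with the term and 38 changed sign. Among the 97 at least 2-fold lower, KO PBS replicate 3 lay below the other 2 by at least 0.5 in 5. Of the 97, 61 were called with the term and 1 changed sign. Among all called genes of any size, the excess stood in 491 of 2222 higher ones. The matching deficit stood in 35 of 2477 lower ones. Over all 11666 genes the difference after LPS and the slide difference within KO PBS correlated at r = 0.488, a description across genes that are not independent.

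**Figure D4:**
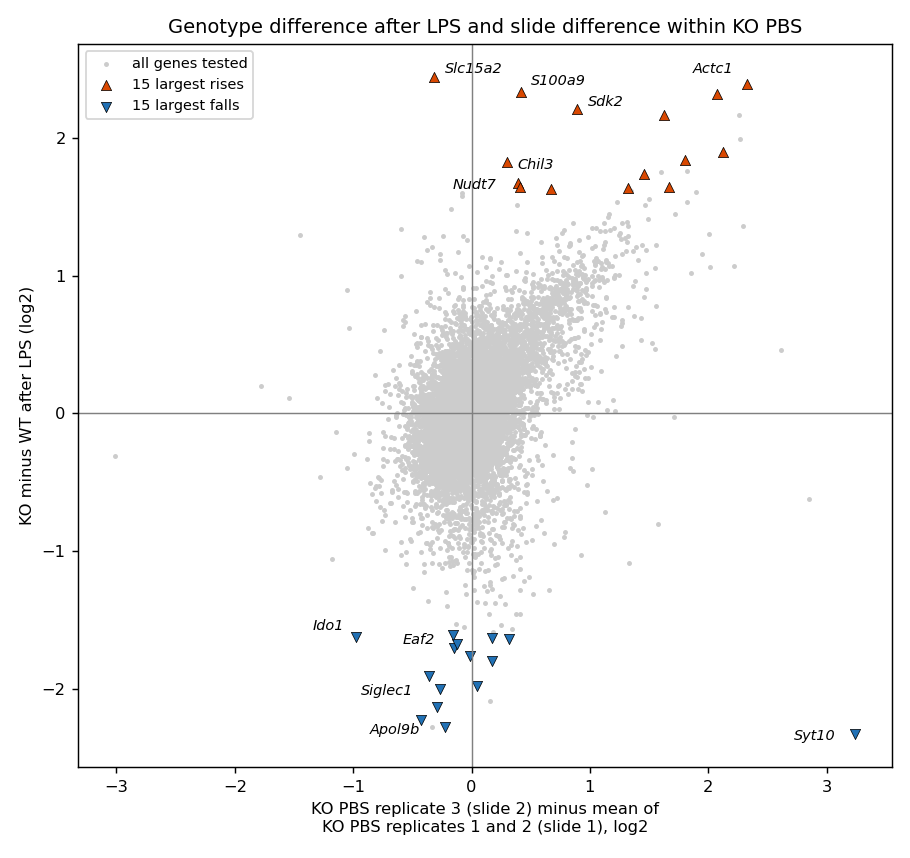
KO minus WT after LPS (vertical axis, log2) against KO PBS replicate 3, on slide 2, minus the mean of KO PBS replicates 1 and 2, on slide 1 (horizontal axis, log2), for 11666 genes. Orange triangles are the 15 largest rises and blue ones the 15 largest falls; 10 rises lie at or beyond 0.5 on the horizontal axis, whereas the falls other than Syt10 lie below it.

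Actc1, the cardiac actin gene, showed the slide pattern plainly, at -2.34, -2.19 and -2.27 in WT LPS and 0.17, 0.17 and 0.05 in KO LPS, a difference of 2.40 ± 0.46 (adjusted p = 0.0024). In KO PBS it was at -2.14, -2.23 and 0.14, so the slide 2 array alone was high, and the slide term left 0.07 (adjusted p = 0.8). Fpr-rs6, Prl3b1, Vmn1r48, Olfr319, Serpinb6d, BB123696 and Krtap16-3 had the same shape, with slide differences of 2.07, 1.62, 1.80, 1.46, 1.32, 2.13 and 1.67. Under that term BB123696 and Krtap16-3 turned to -0.23 and -0.02.

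The rises that kept their call in the slide-term fit were Sdk2, Chil3 and Nudt7. Nudt7, a peroxisomal hydrolase of coenzyme A, was at -1.65, -1.54 and -1.57 in WT LPS and 0.10, 0.07 and 0.09 in KO LPS, a difference of 1.67 ± 0.10 (adjusted p = 2.6e-06), and 1.28 (adjusted p = 0.00044) with the term. In PBS it differed by 0.33, and LPS arrays lay below PBS arrays in WT and above them in KO cells. Sdk2, a sidekick adhesion molecule, differed by 2.21 ± 0.20 and by 1.32 (adjusted p = 0.0025) with the term, at levels well below those of the 75th percentile (-3.26, -3.05 and -3.23 against -0.96, -0.94 and -1.02). Slc15a2, a peptide transporter that can carry bacterial muropeptides, was at -0.30, 0.11 and -1.50 against 2.00, 2.11 and 1.54, a difference of 2.44 ± 0.41 (adjusted p = 0.0012). It was higher in PBS too (2.19), its slide difference was -0.32, and the term gave 2.76 (adjusted p = 0.065). Dpep3 and Abca13 differed by 1.63 ± 0.21 and 1.65 ± 0.23 and were at 0.96 (adjusted p = 0.092) and 1.24 (adjusted p = 0.095) with the term.

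Markers of other cell types moved in part with genotype. Of 13 B-cell markers, all above background, 7 were lower and 0 higher in KO LPS, and their summed signal was 95.2 to 111.5 in WT LPS and 80.5 to 81.2 in KO LPS, with Vpreb3 lower by -1.38 ± 0.15. Of 8 mast-cell markers 3 were lower, and the sum was 241.9 to 265.4 in WT LPS and 189.5 to 206.5 in KO LPS. Of 9 T-cell markers tested 4 were lower and 2 higher, with sums of 12.35 to 13.02 and 13.44 to 14.62. In the slide-term fit 2 B-cell markers and 1 mast-cell marker were called lower, 0 of either were called higher, and 0 T-cell markers were called. The neutrophil markers Ngp, Ltf and Cxcr2 were well above background on 0 of 6 LPS arrays, and the 3 tested, Elane, Camp and S100a8, summed to 3.87 to 9.51 in WT LPS and 6.36 to 7.62 in KO LPS. The part of these cells in the differences above was not tested.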

How the data were processed

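Single-colour Agilent arrays measured RNA of 12 macrophage samples, labelled with Cy3 from 0.1 µg per the labels' protocols. The deposited files hold spot intensity from Agilent Feature Extraction 11.5.1.1, per the submitters' processing notes, already background-corrected as the processed signal, with flags for spots well above background, per the file headers. Depth does not apply to arrays, and 3 arrays per group limit the precision. Between 48.8% and 57.1% of 59305 non-control spots were well above background, and 0 were saturated.

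The processed intensities were turned to log2 and reduced by the array's 75th percentile of non-control spots. Spots of a probe were averaged without those marked as outliers. Probes were named through RefSeq accessions (58.3% of 56605 probes), with names and promoter sequences from a table of GRCm38.p6. The files' positions use an earlier build and were not used. The brightest kept probe stood for a gene, and of 2146 genes with several kept probes and a called probe 78 had probes called in opposite directions. limma 3.58.1 in R 4.3.3 fitted a mean per group over 12 arrays, with a trend in the variance, two-sided tests and Benjamini-Hochberg adjustment over 12027 genes, of which the 11666 autosomal ones are reported. In 10 simulations 200 of 12027 genes were changed for KO against WT after LPS. Of 1.5-fold, 2-fold and 4-fold changes 79.6%, 91.9% and 98.8% were recovered, and 6.4% of calls were false. The simulated arrays carried independent noise and no slide difference, so these shares do not cover calls that follow the slide.

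Named genes were the 15 largest rises and falls among called genes whose arrays did not overlap, without clone, predicted and locus names, and up to 4 called members of each list by smallest p (2 members where none was called). Some genes that the rule or lists hold are not reported here. Members and lists were chosen with earlier results of these data known. Residuals of arrays with equal replicate numbers correlated at -0.011, -0.021 and -0.088 between the LPS groups, which showed no pairing of KO LPS with WT LPS. Pairing of PBS with LPS arrays within a genotype was not tested. In WT cells replicate 3 was the lowest in both PBS and LPS for S100a9 (-2.41 and -2.90) and Uchl1 (-2.08 and -2.48). The alternatives were other scalings, a normexp background correction (offset 50, on the median spot signal, because the files used hold no mean signal), other filters, the slide as a term or random block, the mean of a gene's probes, the 6 LPS arrays alone, a replicate block, and leaving out each array.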

Additional observations from a re-analysis of the deposited data

Results flagged for a closer look

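Of the 127 genes reported by the naming rule for their difference after LPS, 118 were well above background on all 12 arrays, and in 48 of these the genotype difference after LPS departed from that in PBS (limma interaction, adjusted p below 0.05). The difference after LPS is part of the interaction, so choosing genes by it favours genes with an interaction. Over all 11666 genes tested the interaction was called below 0 in 449 (3.85%) and above 0 in 110 (0.943%). Among the 48 the interaction, in log2 units, was below 0 in 40 and above 0 in 8. In 32 of the 40 the mean was higher in KO cells in PBS and lower after LPS. Among antiviral effectors and related schlafen genes it was Apol9b -2.85, Oas3 -2.02, Slfn4 -1.73, Isg20 -1.67, Bst2 -1.35 and Ifi27l2a -0.67. Interferon-inducible GTPases had values of Tgtp2 -2.09, Ifi47 -1.60, Igtp -1.58 and Gvin1 -1.16. The nucleic acid sensors gave Dhx58 -1.53, Ifi204 -1.28, Ddx58 -1.23 and Ifi205 -0.79. Signalling genes of the interferon and TLR4 pathways gave Irf7 -1.52, Stat2 -1.09, Tbk1 -0.35 and Pdlim2 -0.39. Chemokines and cytokines below 0 were Cxcl10 -2.02, Il15 -1.73, Tnfsf10 -1.37 and Ccl5 -0.87. Peptide loading and co-stimulation genes below 0 were Psmb8 -0.93, Psmb9 -0.92, Cd40 -0.84, Tapbp -0.76 and Psme1 -0.67. Genes of monocyte-derived cells and the receptor Siglec1 gave Siglec1 -1.10, Plac8 -0.98 and Ly6c2 -0.71. Others below 0 were Rin2 -1.91, Mlkl -1.36, Itpka -1.31, Keap1 -0.69, Eaf2 -0.52, Casp8 -0.52, Npc2 -0.51, Apoc2 -0.50, Ddit3 -0.46 and Grn -0.37. Above 0 were Nudt7 1.34, Naip1 0.82, Il1a 0.75, Idi1 0.63, Cd80 0.62, Cxcl2 0.62, Fosl2 0.53 and Pmaip1 0.50. In the slide-term fit all 48 kept their sign and 37 kept their call; those that lost it were Siglec1, Ccl5, Eaf2, Apoc2, Ddit3, Pdlim2, Tbk1, Fosl2, Cxcl2, Cd80 and Il1a. Groups of 3 arrays are too small for a test of single outlying arrays.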

How the results depend on the processing

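Of the settings run, the slide changed the number of calls after LPS most. As a fixed term it left 767 calls after LPS, 337 higher and 430 lower, 24 of the higher ones at least 2-fold, and 5 lower GTPases. As a random block (consensus correlation 0.405) it left 1367, 614 higher and 753 lower, 37 of the higher at least 2-fold. Under the fixed term BB123696 (-0.23), Krtap16-3 (-0.018), Tirap (0.031) and Cd40 (0.18) turned sign; by construction it rests on a single array. Median scaling gave 1387 higher, 3852 lower and 105 at least 2-fold higher. Counts at least 2-fold higher and lower were 64 and 55 with normexp, and 455 and 419 without a filter on dim probes; with probes above background in 1 LPS group 336 were higher. Apart from the slide settings, the cause of these moves was not tested. Leaving out single arrays gave 3394 to 5474 calls after LPS, 861 to 2469 in PBS and 356 to 2553 for the interaction, each extreme set by one array (KO LPS replicate 1 and KO PBS replicate 3; WT PBS replicates 1 and 3; WT PBS replicate 1 and KO PBS replicate 3), and 39 lower effectors each time. A replicate block gave 4691 calls, 4470 of them shared, though the numbers showed no pairing of KO LPS with WT LPS arrays. Of the 131 genes that the naming rule chose 50 stayed called in the same direction with the slide term and 79 with the random block. The 3 arrays per group and probes near background limit the rest.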
